A study of Mus musculus with 6 samples.

Results

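The histone genes of engineered mouse muscle were followed in this comparison of constructs exposed to tumour necrosis factor alpha (TNF-alpha) with vehicle constructs. Histone symbols were taken by name (those starting with Hist1h to Hist4h, H1f, H2af or H3f3), which gave 84 of the 24421 symbols in the table. Of these, 60 had at least 10 counts in at least 3 of the 6 libraries and form the set described here, 50 of them replication-dependent (the Hist symbols) and 10 variant genes. The other 24 symbols, 18 Hist and 6 variant, stayed below that limit. Among these 24, 5 were at 0 in every library (Hist1h2aa, H1fnt and the 3 H2afb genes) and the highest count of any of them in any library was 27.

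The RNA came from C2C12 cells, an established mouse myoblast line that fuses into myotubes, embedded in a type I collagen gel held at its ends by artificial tendons, and differentiated in horse serum. The TNF-alpha group received 100 ng/mL of the cytokine for 72 h, and the vehicle group received phosphate-buffered saline over the same time. Each group held 3 constructs, numbered as biological replicates, and no label ties them to separate cell batches, so that a p-value here reflects only how far these constructs spread. C2C12 is a single line, so the constructs hold no vessels or immune cells of an animal, and they mix myotubes with cells that have not fused, whose shares were not counted. In such bulk RNA, fewer cells of a type and less RNA per cell cannot be told apart.

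Histones are the proteins around which DNA is wound: H2A, H2B, H3 and H4 form the nucleosome core and H1 binds the linker DNA between nucleosomes. Replication-dependent histone genes sit in clusters without introns, are transcribed in S phase, and end their mRNA not in a poly(A) tail but in a short stem-loop that the stem-loop binding protein recognises. Variant histone genes lie outside the clusters, are polyadenylated, and supply chromatin in cells that are not replicating. Some replication-dependent genes are also known to give polyadenylated transcripts in differentiated cells. The libraries were made from polyA RNA, so a level of a Hist gene here is that of the captured transcripts, and how much of its RNA ended at the stem-loop was not measured.

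The stem-loops are shown for H2afx and for Hist genes whose values are described below, because this element is what sets their mRNAs apart from those of most variants. They were read from GENCODE M21 transcripts (GRCm38), 5′ to 3′, with the 16 letters of the stem-loop in capitals and the next 10 bases in lower case.
Hist1h1c: GGCTCTTTTCAGAGCCaccactccca
Hist1h1d: GGCTCTTTTCAGAGCCacccacaacc
Hist3h2a: GGCTCTTTTCAGAGCCacccacaacc
Hist1h2ab: GGCTCTTTTCAGAGCCacccacatct
Hist1h2bg: GGCTCTTTTCAGAGCCacccatactg
Hist1h3c: GGCTCTTTTAAGAGCCacctaagatg
Hist1h4a: GGCCCTTCTCAGGGCCgcccacattc
Hist1h4i: GGCCCTTTTTAGGGCCaccacaaaat
H2afx: GGCCCTTTTAAGGGCCaccacctccc

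The search, over 16 letters after the stop codon, asked for a stem of 6 base pairs that opens with GG, closes with CC and ends at a T-A pair, around a loop that starts with T and has a further T inside. It was met in 35 of the 50 Hist genes (70%), in 1 of the 10 variant genes, and in 78 of 19917 protein-coding symbols (0.392%). The form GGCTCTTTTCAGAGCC was held by 23 genes of the set, among them Hist1h1c, Hist1h1d, Hist3h2a and Hist1h2bg. The variant with a stem-loop was H2afx, whose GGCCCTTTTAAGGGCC no other gene of the set carried. Of the 15 Hist genes with no match, 8 have no annotated 3′ untranslated region, so the letters that follow their stop codon were not in the sequences searched. A poly(A) signal (AATAAA or ATTAAA) lay in the last 60 bases of an annotated transcript in 13 of the 50 Hist genes (26%), in 9 of the 10 variant genes and in 80.7% of protein-coding symbols. In Hist1h1c the annotated transcript runs 840 bases past the stem-loop and in Hist3h2a 1643 bases, both with such a signal, whereas in Hist1h2ab it stops 11 bases past it.

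The libraries held 81713008 to 93533748 counts. Levels are given as CPM (the usual per-library scaling of counts) with edgeR's TMM factors, and "rose" or "fell" is written of genes with a Benjamini-Hochberg adjusted p under 0.05 over 15792 tested genes by edgeR's quasi-likelihood test. Across all tested genes 27.6% rose and 27.9% fell, 55.5% moved in either direction, and in 64.5% the TNF-alpha and vehicle libraries did not overlap. The labelled cell type was checked on 7 myotube markers, whose summed level was 5221 to 6039 CPM in TNF-alpha libraries and 7733 to 9094 CPM in vehicle libraries. Of these markers 5 fell, Myog rose and Acta1 was not past the test. The summed level of 4 markers of myoblasts or reserve cells was 274 to 368 CPM in TNF-alpha libraries and 143 to 172 CPM in vehicle libraries, of which Cd34 and Myf5 rose and Pax7 and Spry1 fell. The part of these cells in the histone differences was not tested. Of 5 leukocyte markers, Ptprc had 0 counts in the TNF-alpha libraries and at most 4 in a vehicle library, and Adgre1 had at most 2 counts in any library. Their summed level, 19.6 to 21.1 CPM in TNF-alpha libraries and 5.13 to 5.40 CPM in vehicle libraries, was nearly all Cd68. The summed level of 3 endothelial markers was under 1 CPM in every library.

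More replication-dependent genes rose than fell, and more variant genes fell than rose. In TNF-alpha constructs 20 of the 50 Hist genes rose (40%, beside 27.6% of all genes) and 2 fell (27.9% of all), the other 28 missing the threshold, with a median log2 fold change of 0.56 against 0.00 over all tested genes. Of the 10 variant genes 3 rose and 6 fell, H1fx being the other, with a median of -0.39. The groups did not overlap in 27 of the 50 Hist genes and in 9 of the 10 variant genes, beside 64.5% of all genes. The calls among the Hist genes rested partly on single libraries. With TNF-alpha replicate 1 left out 12 rose, a share near that of all tested genes in that fit (4142 of 16023). Leaving out either TNF-alpha replicate 3 or vehicle replicate 1 gave 13. The median of the Hist genes was 0.36 without TNF-alpha replicate 1. The share of all genes called higher in every fit was not counted. In each of the fits that tested them, 10 Hist genes were called higher: Hist1h1c, Hist1h1d, Hist1h1e, Hist3h2a, Hist1h2bg, Hist1h2bq, Hist1h2br, Hist1h4a, Hist1h4i and Hist1h4k. Among these, Hist1h2bq and Hist1h2br had identical counts in all 6 libraries, so they are not separate measurements. Hist1h4a and Hist1h4k entered the set through their TNF-alpha counts alone, which built in a difference in that direction.

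**Figure D1:**
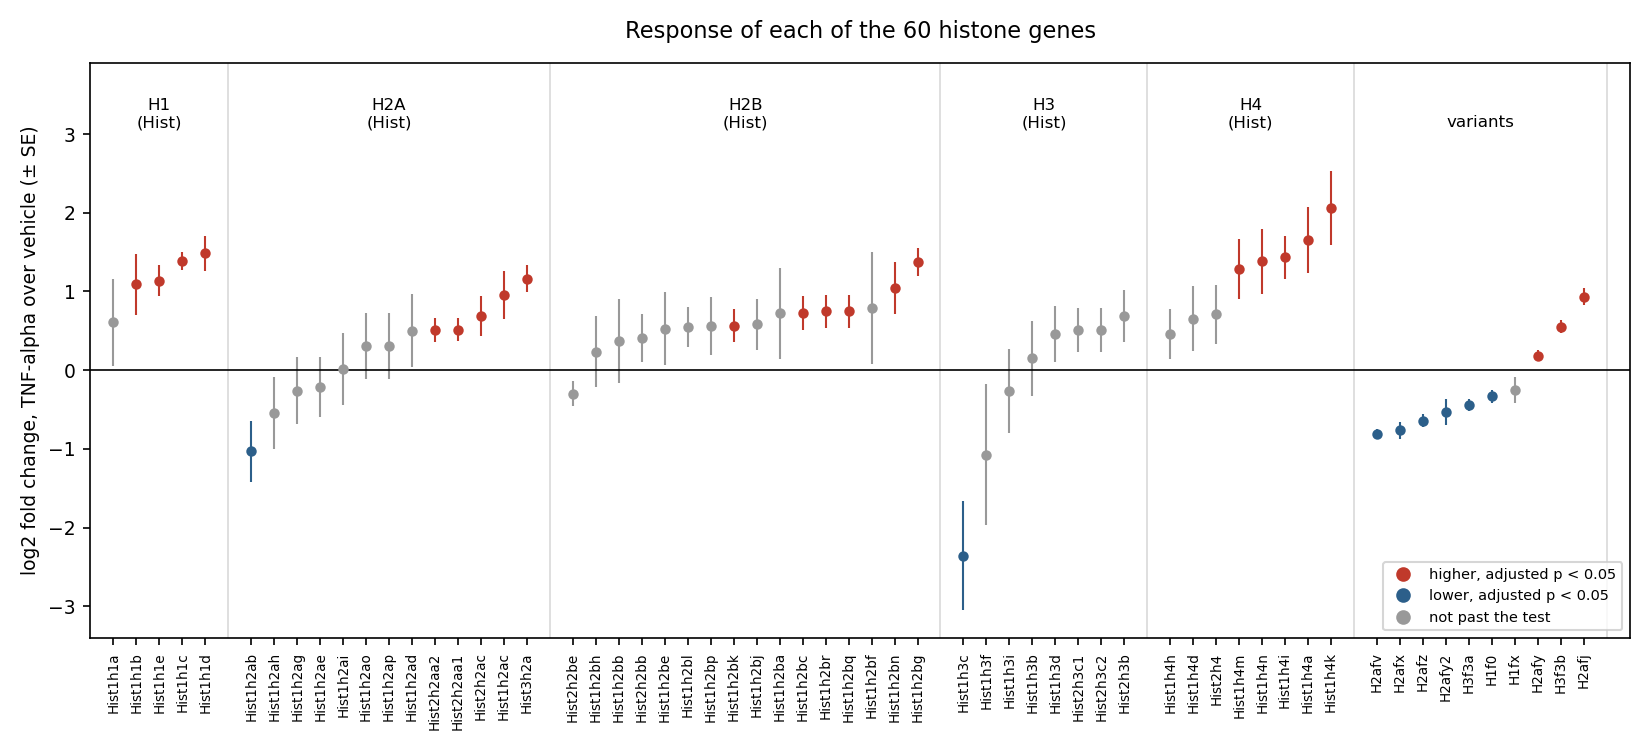
Log2 fold change of each of the 60 histone genes, TNF-alpha over vehicle, with its standard error (bars), grouped by histone type. Points above 0 are higher in TNF-alpha constructs. The H1 and H4 genes of the clusters lie above 0, and 7 of the 10 variant genes lie below it.

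Summed over the 50 Hist genes, the level was 333.9, 250.8 and 266.7 CPM in TNF-alpha constructs and 135.5, 160.2 and 125.6 CPM in vehicle constructs, a 2.02-fold difference between means of 283.8 ± 44.1 and 140.4 ± 17.8 (SD, n = 3 each). The groups did not overlap. The 10 variant genes summed to 2142, 1927 and 1936 CPM in TNF-alpha constructs and 1945, 1807 and 1910 CPM in vehicle constructs, where the groups overlapped. Thus the Hist genes took 13.5%, 11.5% and 12.1% of all histone counts in TNF-alpha constructs and 6.51%, 8.14% and 6.17% in vehicle constructs. Hist1h1c and Hist1h2bc together made up 71.5% ± 2.1 of the Hist total in TNF-alpha constructs and 64.7% ± 1.9 in vehicle constructs. The remaining 48 Hist genes summed to 102.7, 66.9 and 74.5 CPM in TNF-alpha constructs and 48.4, 53.3 and 46.4 CPM in vehicle constructs, a 1.65-fold difference.

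Decimal counts were more frequent among the Hist genes than among the variants. The Hist genes resemble each other closely, and 46 of the 50 had counts with decimals in at least 1 library, against 5 of the 10 variants, and how reads that match several copies were divided is not known. The counts of 4 pairs lay within 2% of each other in all 6 libraries. Hist1h2bq and Hist1h2br had identical counts in all 6, as did Hist1h2ao and Hist1h2ap, Hist2h3c1 and Hist2h3c2 in 5, and Hist2h2aa1 and Hist2h2aa2 in 1. Of the 4 Hist genes with whole counts throughout 1 rose and 3 had positive log2 fold changes, with a median of 0.66. Their summed level was slightly lower in TNF-alpha constructs (log2 ratio -0.06). Hist2h2be, the most abundant of them, had a mean of 2.06 CPM in TNF-alpha constructs and 2.54 CPM in vehicle constructs. Hist1h1a, Hist1h1b and Hist2h4 had higher means in TNF-alpha constructs.

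Most linker histone genes of the cluster rose. All 5 had higher mean levels in TNF-alpha constructs and 4 rose (beside 27.6% of all genes), with a median log2 fold change of 1.14. Their sum was 145.8 ± 8.59 CPM in TNF-alpha constructs and 56.0 ± 9.18 CPM in vehicle constructs (SD, n = 3). Hist1h1c encodes H1.2, one of the main somatic linker histones (GRCm38 chr13:23738808-23740367, plus strand). It had 151.1, 135.3 and 137.9 CPM in TNF-alpha constructs and 49.5, 64.6 and 48.6 CPM in vehicle constructs, a 2.61-fold rise (log2 fold change 1.38 ± 0.11 SE, edgeR adjusted p = 2.88e-05). Every TNF-alpha value was above the highest vehicle value. Hist1h1d, for H1.3, had 2.22, 2.22 and 1.97 CPM in TNF-alpha constructs and 0.821, 0.915 and 0.554 CPM in vehicle constructs (1.48 ± 0.22, edgeR adjusted p = 5.34e-04), again without overlap. Hist1h1e, for H1.4, rose by 1.14 ± 0.19 (edgeR adjusted p = 0.00103), and Hist1h1b, for H1.5, by 1.09 ± 0.39 (edgeR adjusted p = 0.0399). The Hist1h1b call was lost without TNF-alpha replicate 1 (adjusted p = 0.155), and also without TNF-alpha replicate 3 or vehicle replicate 2 or 3, with no low-count filter and with DESeq2. Hist1h1e, Hist1h1b and Hist1h1a are named here after their values were seen. Hist1h1a, for H1.1, stayed under 0.35 CPM in each library and was not past the test (0.61 ± 0.55, edgeR adjusted p = 0.376).

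The linker histone variants had lower means in TNF-alpha constructs. H1f0 encodes H1.0, the linker histone of differentiated and non-dividing cells, and had 210, 205 and 192 CPM in TNF-alpha constructs and 234, 248 and 283 CPM in vehicle constructs. Its groups did not overlap, and it fell by 0.33 ± 0.08 on the log2 scale (edgeR adjusted p = 0.00741). H1fx, for the divergent linker histone H1X, had 6.47, 7.00 and 6.90 CPM in TNF-alpha constructs and 6.56, 7.34 and 10.3 CPM in vehicle constructs, overlapping values that did not pass the test (-0.25 ± 0.17, edgeR adjusted p = 0.229). Per kilobase of annotated exon, Hist1h1c took 46.9%, 44.7% and 46.7% of the summed H1 level in TNF-alpha constructs and 20.9%, 24.5% and 17.5% in vehicle constructs. H1f0 took 49.4%, 51.4% and 49.4% in TNF-alpha constructs and 74.9%, 71.4% and 77.3% in vehicle constructs. The shares of Hist1h1c and H1f0 were thus close to each other in TNF-alpha constructs, and H1f0 was far the larger in vehicle constructs.

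**Figure D2:**
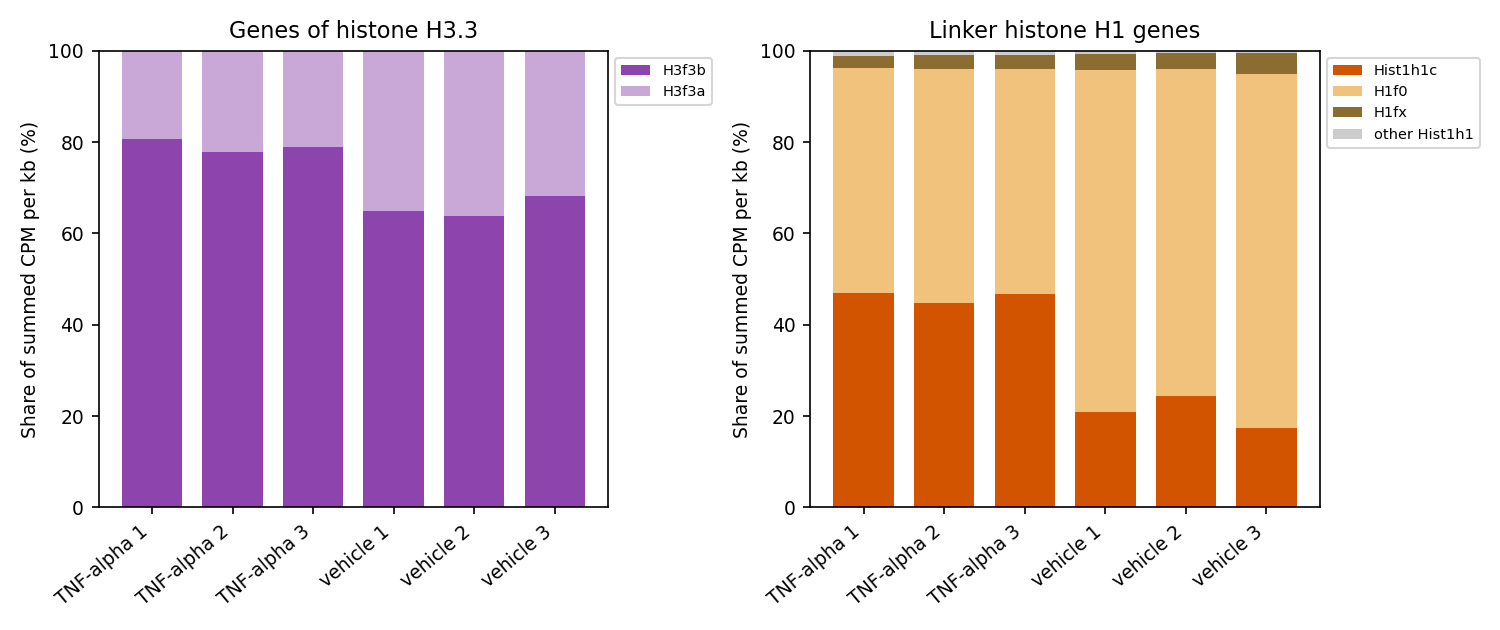
Left, share of the summed level of the H3.3 genes, and right, share of the summed level of the linker histone H1 genes, per library (CPM per kilobase of annotated exon, as a percentage). H3f3b holds 77.8% to 80.7% of the H3.3 total in TNF-alpha libraries and 63.9% to 68.1% in vehicle libraries, and Hist1h1c a larger share of H1 in TNF-alpha libraries.

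The H1 genes of the cluster are also partly alike upstream. The 250 bases before the RefSeq start (GRCm38.p6) are printed for the 3 H1 genes of the cluster with the highest levels, 5′ to 3′ on the gene's strand, with motif matches on either strand in capitals. The motifs were the CCAAT box (its letters are its name), the TATA box as TATAAA, the AC box of H1 genes as AAACACA, and the octamer of H2B genes as ATTTGCAT. The start in RefSeq differs from the outermost one in GENCODE for Hist1h1d.
Hist1h1c (chr13:23738557-23738806, plus strand): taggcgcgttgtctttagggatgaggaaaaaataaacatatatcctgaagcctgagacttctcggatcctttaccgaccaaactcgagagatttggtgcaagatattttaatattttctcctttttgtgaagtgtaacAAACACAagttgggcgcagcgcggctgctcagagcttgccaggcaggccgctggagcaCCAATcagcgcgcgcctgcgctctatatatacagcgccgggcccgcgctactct
Hist1h1d (chr13:23554782-23555031, plus strand): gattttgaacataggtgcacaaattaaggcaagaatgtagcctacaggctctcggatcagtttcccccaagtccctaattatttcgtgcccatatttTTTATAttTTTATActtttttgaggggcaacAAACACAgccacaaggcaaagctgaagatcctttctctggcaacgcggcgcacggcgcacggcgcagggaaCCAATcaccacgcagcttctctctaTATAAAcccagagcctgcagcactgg
Hist1h1e (chr13:23622559-23622808, minus strand): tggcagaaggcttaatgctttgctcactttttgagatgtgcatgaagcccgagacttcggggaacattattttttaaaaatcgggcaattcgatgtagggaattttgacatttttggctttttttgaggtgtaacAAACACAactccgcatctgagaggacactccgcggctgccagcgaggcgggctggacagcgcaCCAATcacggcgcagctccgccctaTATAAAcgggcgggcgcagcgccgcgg

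AAACACA began 112, 122 and 115 bases before the start in Hist1h1c, Hist1h1d and Hist1h1e, and CCAAT 54, 51 and 52 bases before it. AAACACA was present in 4 of the 5 H1 genes (80%) against 7.2% of 27025 genes with a promoter window of the same length. In Hist1h1a it was not among the letters of this window. Over all 45 Hist genes with a RefSeq promoter, CCAAT was present in 38 (84.4%, against 37.5% of all genes with a promoter) and TATAAA in 23 (51.1% against 14.3%). The octamer was present in 6 of 14 H2B genes (42.9%) and in 6 of 12 H2A genes, against 1.81% of all genes with a promoter. The NF-kB motif (GGGA, then any base, then TTTCC) was found in 0 of the 54 matched genes and in 0.414% of all genes with a promoter. No promoter was in the table for the other 6 genes, Hist1h2ap, Hist1h2bc, H2afx, Hist1h3f, Hist2h4 and Hist2h2be. These matches describe letters only.

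Among the H2A genes of the clusters 5 of 13 rose and 1 fell (beside 27.6% and 27.9% of all genes), with a median log2 fold change of 0.30. With DESeq2 these counts were 4 and 0, and with limma-voom 5 and 1. Hist3h2a encodes an H2A of the small cluster on chromosome 11 (chr11:58954685-58956830, plus strand). It had 15.5, 11.1 and 10.5 CPM in TNF-alpha constructs and 6.05, 4.73 and 5.78 CPM in vehicle constructs, with no overlap (1.16 ± 0.17, edgeR adjusted p = 5.16e-04). Of the paired genes Hist2h2aa1 and Hist2h2aa2 on chromosome 3, Hist2h2aa1 had 12.6, 8.54 and 10.4 CPM in TNF-alpha constructs and 6.88, 8.16 and 7.07 CPM in vehicle constructs. Hist2h2aa2 had 12.7, 8.57 and 10.5 CPM in TNF-alpha constructs and 6.95, 8.27 and 7.07 CPM in vehicle constructs. Both rose by 0.51 ± 0.15 (edgeR adjusted p = 0.0170 for Hist2h2aa1 and 0.0180 for Hist2h2aa2). Without vehicle replicate 1 these adjusted p-values were 0.0635 and 0.0662, and Hist2h2aa2 was also not past the test without TNF-alpha replicate 1 (0.0521) or vehicle replicate 3 (0.0513). Hist1h2ab, a sparse H2A gene with its annotated end near the stem-loop, had 0.111, 0.0912 and 0.0949 CPM in TNF-alpha constructs and 0.152, 0.251 and 0.202 CPM in vehicle constructs. It fell by 1.03 ± 0.39 (edgeR adjusted p = 0.0480), and the call was lost in 9 of 13 alternatives (adjusted p 0.0412 to 0.163), among them each of the 6 fits that left out 1 library.

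The H2B genes leaned upward, led by Hist1h2bc. By edgeR 6 of 16 rose and 0 fell, beside 27.6% and 27.9% of all genes. The 6 include Hist1h2bq and Hist1h2br, whose identical counts are not separate measurements. The count fallen was also 0 at an unadjusted p under 0.05, with DESeq2 and with limma-voom. Of the 16, 15 had positive log2 fold changes, with a median of 0.58. Hist1h2bc (chr13:23684199-23692908, plus strand), the most abundant core histone gene of the clusters per kilobase, had 80.2, 48.5 and 54.3 CPM in TNF-alpha constructs and 37.7, 42.3 and 30.6 CPM in vehicle constructs. The groups were apart by a small margin (0.73 ± 0.21, edgeR adjusted p = 0.0249). The adjusted p was 0.0722 without vehicle replicate 1, 0.0599 without vehicle replicate 3 and 0.0569 when no low-count filter was used, and the log2 fold change was 0.48 without TNF-alpha replicate 1. Hist1h2bg had 7.75, 5.55 and 6.36 CPM in TNF-alpha constructs and 2.81, 2.04 and 2.71 CPM in vehicle constructs, wider apart (1.38 ± 0.18, edgeR adjusted p = 2.35e-04). Hist2h2be, named after its values were seen, was the H2B gene with the opposite sign, at 2.23, 1.80 and 2.17 CPM in TNF-alpha constructs and 2.70, 2.32 and 2.60 CPM in vehicle constructs (-0.30 ± 0.16, edgeR adjusted p = 0.142).

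Of the 8 H3 genes of the clusters 0 rose and 1 fell by edgeR, beside 27.6% and 27.9% of all genes. The count risen was also 0 at an unadjusted p under 0.05, with DESeq2 and with limma-voom. Their summed level was 12.3, 5.98 and 6.10 CPM in TNF-alpha constructs and 5.76, 6.51 and 5.81 CPM in vehicle constructs, so that TNF-alpha replicate 1 alone stood above the vehicle range. Hist1h3c had 0.0523, 0.00198 and 0.0572 CPM in TNF-alpha constructs and 0.182, 0.147 and 0.269 CPM in vehicle constructs, the largest fall of the set on the log2 scale (-2.36 ± 0.69, edgeR adjusted p = 0.0176) but at a few counts per TNF-alpha library. It entered the set through its vehicle counts alone, and its adjusted p was 0.0575 without vehicle replicate 3. Hist1h3f, named after its values were seen, was not past the test (-1.07 ± 0.90, edgeR adjusted p = 0.342), but passed it when TNF-alpha replicate 1 was left out (-3.59, adjusted p = 0.0112).

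The H4 genes of the clusters all had positive log2 fold changes, and 5 of 8 rose (beside 27.6% of all genes), with a median of 1.33. Hist1h4i (chr13:22040636-22041362, minus strand) was the most abundant, at 6.01, 2.97 and 3.52 CPM in TNF-alpha constructs and 1.38, 1.79 and 1.45 CPM in vehicle constructs (1.43 ± 0.27, edgeR adjusted p = 0.00217). Its lowest TNF-alpha value lay above its highest vehicle value. Hist1h4a had 0.180, 0.193 and 0.189 CPM in TNF-alpha constructs and 0.0591, 0.0790 and 0.0399 CPM in vehicle constructs (1.65 ± 0.42, edgeR adjusted p = 0.00922). Hist1h4k had 0.150, 0.158 and 0.217 CPM in TNF-alpha constructs and 0.0471, 0.0363 and 0.0399 CPM in vehicle constructs (2.06 ± 0.47, edgeR adjusted p = 0.00508). Hist1h4a and Hist1h4k entered the set through their TNF-alpha counts alone, so that a difference in that direction was built into their choice.

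**Figure D3:**
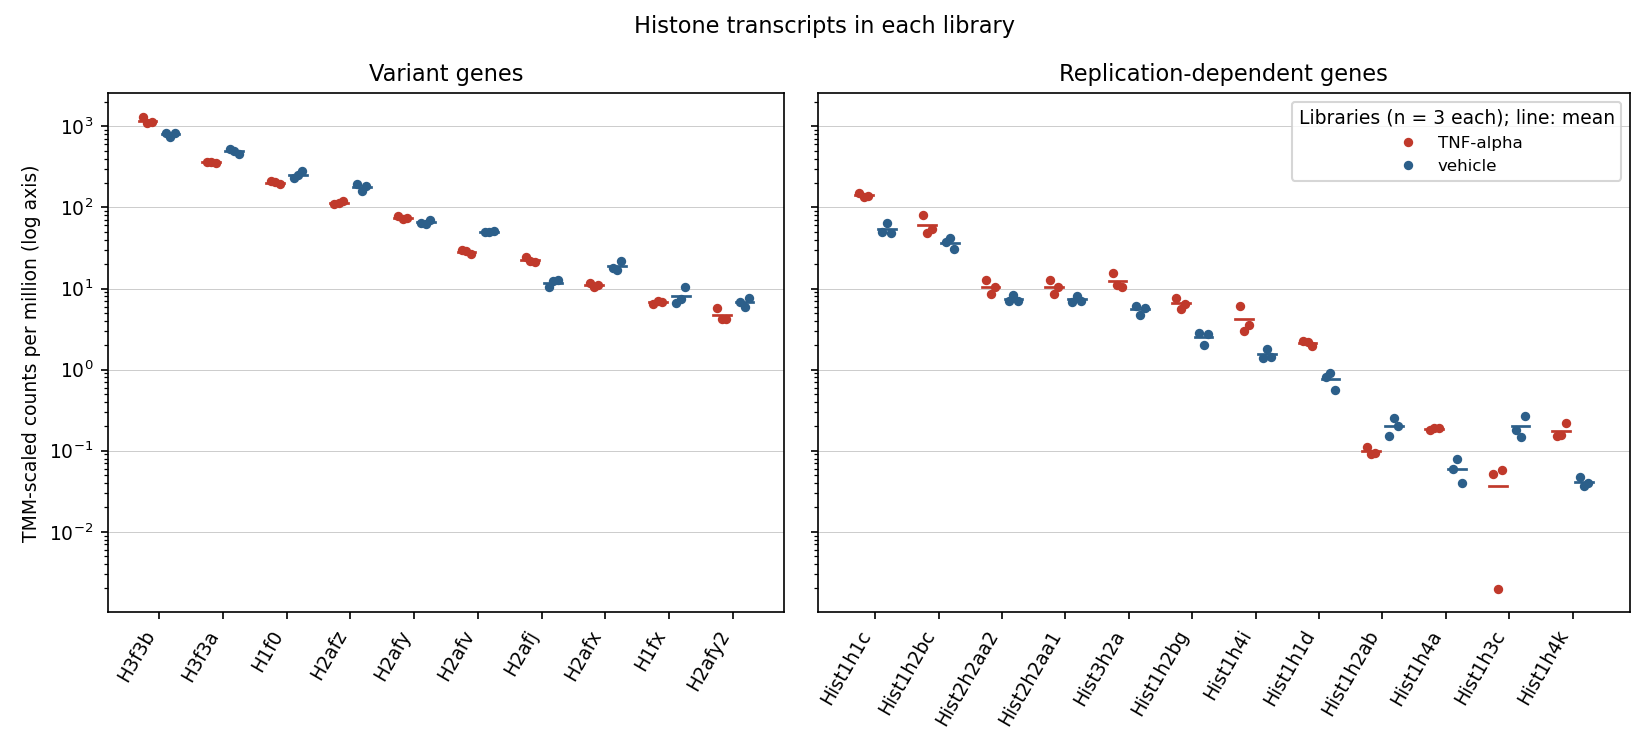
TMM-scaled CPM (log axis) of the 10 variant genes and of 12 replication-dependent genes in each of the 6 libraries (points), with group means (lines). The variants H3f3a, H2afz and H2afv lie lower in TNF-alpha libraries, and Hist1h1c, Hist3h2a and Hist1h2bg lie higher.

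The 10 Hist genes that rose and were not among those with values in every library had log2 fold changes from 0.57 (Hist1h2bk) to 1.38 (Hist1h4n) and mean levels up to 2.89 CPM in TNF-alpha constructs. In 7 of them the call was lost in at least 1 alternative: in 9 of 14 for Hist1h2bk, 7 of 13 for Hist1h2ac, 6 of 14 for Hist2h2ac, 6 of 13 for Hist1h1b, 5 of 13 for Hist1h2bn, 3 of 13 for Hist1h4m and 2 of 14 for Hist1h4n. Each of the 7 was lost without TNF-alpha replicate 3 and without TNF-alpha replicate 1. These genes are named after their values were seen. Among the 18 Hist genes with a mean of at least 1 CPM 13 rose (29.8% of all genes at that level rose), and among the 32 below it 7 rose and 2 fell (17.3% of all genes at that level rose). The Hist genes not past the test ranged from -1.07 to 0.79 in log2 fold change.

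The H3.3 genes moved against each other. H3f3a and H3f3b encode the same protein, the H3 variant placed in chromatin outside S phase. H3f3b (chr11:116021912-116027962, minus strand), the most abundant histone gene of the set, had 1301, 1095 and 1126 CPM in TNF-alpha constructs and 832, 749 and 818 CPM in vehicle constructs, a rise of 0.55 ± 0.09 without overlap (edgeR adjusted p = 7.56e-04). H3f3a (chr1:180800832-180813943, minus strand) had 365, 368 and 355 CPM in TNF-alpha constructs and 530, 498 and 451 CPM in vehicle constructs, a fall of 0.44 ± 0.07 on the log2 scale, also without overlap (edgeR adjusted p = 0.00104). Per kilobase of exon, H3f3b made up 80.7%, 77.8% and 78.9% of the H3.3 transcripts in TNF-alpha constructs and 64.9%, 63.9% and 68.1% in vehicle constructs. H3f3b had whole counts in each library, and H3f3a in all but 1.

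Their promoters differ in these letters. They are printed in the same way as those of the H1 genes, because the genes encode 1 protein and moved apart. For both genes the RefSeq start lies inside the GENCODE gene.
H3f3b (chr11:116024505-116024754, minus strand): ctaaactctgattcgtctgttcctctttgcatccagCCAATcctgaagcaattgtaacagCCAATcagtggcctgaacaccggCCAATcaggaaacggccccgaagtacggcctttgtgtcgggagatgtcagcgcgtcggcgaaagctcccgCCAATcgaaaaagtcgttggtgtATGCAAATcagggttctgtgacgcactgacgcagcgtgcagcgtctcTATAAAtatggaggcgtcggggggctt
H3f3a (chr1:180813606-180813855, minus strand): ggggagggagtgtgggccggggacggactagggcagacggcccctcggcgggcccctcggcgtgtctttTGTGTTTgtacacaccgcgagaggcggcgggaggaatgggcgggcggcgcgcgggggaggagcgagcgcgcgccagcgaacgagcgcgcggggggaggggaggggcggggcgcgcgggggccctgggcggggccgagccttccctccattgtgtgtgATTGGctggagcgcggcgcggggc

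H3f3b held CCAAT 4 times, beginning 214, 190, 167 and 97 bases before the start, TATAAA at 27 bases, and the octamer on the opposite strand at 74 bases. H3f3a held CCAAT once, on the opposite strand at 24 bases, and AAACACA on the opposite strand at 181 bases. The NF-kB letters were in neither window.

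Of the H2A variants, those of H2A.Z and H2A.X fell and H2A.J rose. H2afz encodes the main form of H2A.Z, the variant of nucleosomes next to promoters, and had 109, 114 and 119 CPM in TNF-alpha constructs and 193, 158 and 184 CPM in vehicle constructs (-0.64 ± 0.08, edgeR adjusted p = 2.21e-04). H2afv, the second H2A.Z gene, had 29.6, 28.8 and 26.8 CPM in TNF-alpha constructs and 49.8, 49.4 and 50.6 CPM in vehicle constructs (-0.81 ± 0.06, edgeR adjusted p = 1.19e-05). The groups did not overlap for either gene, and per kilobase H2afz took a similar share of the pair in both groups, 78.7% ± 1.5 in TNF-alpha constructs and 76.5% ± 1.8 in vehicle constructs (SD, n = 3).

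H2afx, whose protein is phosphorylated around DNA breaks, had 11.7, 10.4 and 11.2 CPM in TNF-alpha constructs and 17.7, 16.9 and 21.9 CPM in vehicle constructs (-0.77 ± 0.11, edgeR adjusted p = 4.78e-04), with no overlap. Thus the 1 variant with a stem-loop fell. H2afj, for the mammalian H2A variant that accumulates in senescent human cells, had 24.7, 21.9 and 21.0 CPM in TNF-alpha constructs and 10.3, 12.3 and 12.8 CPM in vehicle constructs. It rose 1.91-fold (0.93 ± 0.11, edgeR adjusted p = 1.14e-04), more than any other variant.

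The macroH2A genes, whose proteins carry a large extra domain and mark repressed chromatin, had marginal calls that were lost in several alternatives. H2afy, for macroH2A1, had 79.1, 72.8 and 73.5 CPM in TNF-alpha constructs and 64.3, 63.2 and 70.7 CPM in vehicle constructs (0.19 ± 0.07, edgeR adjusted p = 0.0391). The call was lost in 7 of 14 alternatives, among them those without any of the TNF-alpha replicates and without vehicle replicate 1 or 2, and the adjusted p ran from 0.0188 to 0.132 over all 14. H2afy2, for macroH2A2, had 5.78, 4.24 and 4.15 CPM in TNF-alpha constructs and 6.84, 5.89 and 7.74 CPM in vehicle constructs (-0.53 ± 0.17, edgeR adjusted p = 0.0233). That call was lost without TNF-alpha replicate 2 or 3 or without vehicle replicate 1 or 3, with adjusted p from 0.0601 to 0.0834.

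Per kilobase of exon, the levels in TNF-alpha constructs ran from H3f3b (394 CPM per kb) through H3f3a (104), H1f0 (98.5), Hist1h1c (90.7) and H2afz (64.3) to Hist1h2bc (52.8). In vehicle constructs the order was H3f3b (269 CPM per kb), H3f3a (141), H1f0 (124), H2afz (100), Hist1h1c (34.8) and Hist1h2bc (31.9). These lengths are of annotated exons, not of the transcripts captured, and annotated ends differ widely between Hist genes.

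The libraries of a group were not alike for the Hist genes. TNF-alpha replicate 1 was the highest of its group in 38 of the 50 Hist genes (76%), against 39.7% of all tested genes, and in 13 of the 16 H2B genes. Vehicle replicate 2 was the highest of its group in 26 of 50 (52%), against 31.3% of all. The same TNF-alpha library had the lowest level of cycling-cell markers. The summed level of 5 such markers was 25.6, 99.6 and 69.2 CPM in TNF-alpha constructs and 341.9, 243.2 and 373.7 CPM in vehicle constructs, and vehicle replicate 2 had the lowest of its group. Their part in the histone differences was not tested.

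**Figure D4:**
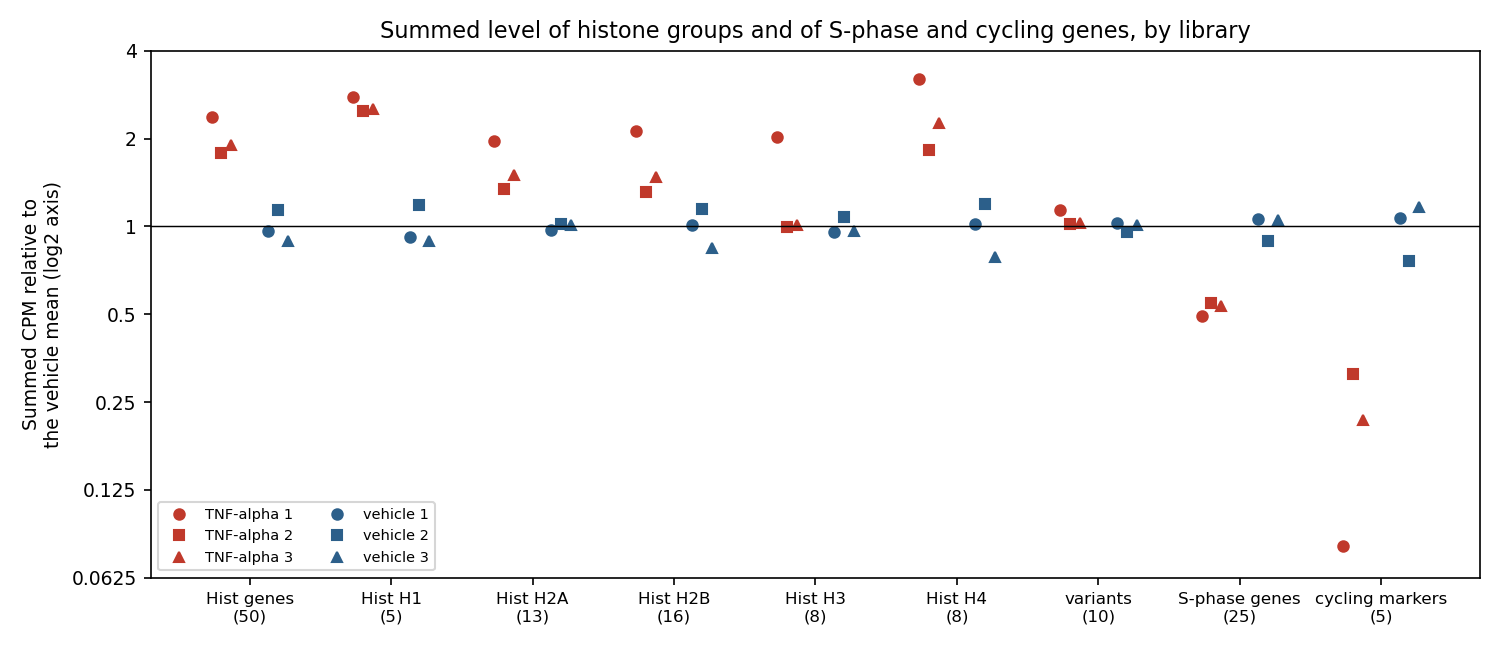
Summed CPM of each histone group and of the S-phase and cycling-cell lists in each library, divided by the vehicle mean (log2 axis), with the number of genes in brackets. The Hist H1 sum is 2.60 times the vehicle mean in TNF-alpha constructs, while the S-phase sum is 0.524 times it.

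Most genes of S phase fell. Of 25 such genes 21 fell and 1 rose (beside 27.9% and 27.6% of all genes), with a median log2 fold change of -1.05. Their sum was 429.9, 477.3 and 466.0 CPM in TNF-alpha constructs and 926.3, 777.5 and 915.1 CPM in vehicle constructs. Mcm6, a subunit of the replicative helicase, had 17.2, 18.4 and 19.5 CPM in TNF-alpha constructs and 71.4, 59.1 and 75.4 CPM in vehicle constructs (-1.90 ± 0.10, edgeR adjusted p = 1.7e-06). Rrm1, a ribonucleotide reductase subunit, had 26.8, 32.0 and 30.0 CPM in TNF-alpha constructs and 88.9, 76.6 and 86.0 CPM in vehicle constructs, 2.83-fold lower in TNF-alpha constructs (edgeR adjusted p = 2.47e-06). E2f1, a transcription factor of S-phase entry, rose by 0.54 ± 0.08 (edgeR adjusted p = 4.66e-04). All 5 cycling-cell markers fell (beside 27.9% of all genes), with a median of -2.37, and Ccna2 is in both lists.

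The genes that process and degrade histone mRNA did not move one way. Of 19 such genes 7 rose and 4 fell (beside 27.6% and 27.9% of all genes), with a median log2 fold change of 0.01. Slbp, the stem-loop binding protein, had 25.7, 28.0 and 25.8 CPM in TNF-alpha constructs and 28.5, 23.9 and 28.9 CPM in vehicle constructs, overlapping values (-0.03 ± 0.09, edgeR adjusted p = 0.772). Sympk, a scaffold of the cleavage machinery, rose by 0.47 ± 0.07 (edgeR adjusted p = 7.7e-04), and Upf1, a helicase used in histone mRNA decay, by 0.36 ± 0.07 (edgeR adjusted p = 0.00169). Ncbp2, a subunit of the cap-binding complex, fell by 0.84 ± 0.09 (edgeR adjusted p = 6.26e-05), and Srrt, its partner ARS2, by 0.49 ± 0.07 (edgeR adjusted p = 3.65e-04). Npat and Casp8ap2, which act at the transcribed histone clusters and are named after their values were seen, also fell. Lsm10, Lsm11, Zfp473, Zcchc6 and Zcchc11, also named after their values were seen, rose.

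Of 25 histone chaperones and their partners 12 fell and 2 rose (beside 27.9% and 27.6% of all genes), with a median log2 fold change of -0.15. Chaf1b, a subunit of the CAF-1 complex that deposits H3 and H4 on replicated DNA, had 1.99, 2.79 and 2.89 CPM in TNF-alpha constructs and 10.8, 9.15 and 10.8 CPM in vehicle constructs (-2.01 ± 0.16, edgeR adjusted p = 1.67e-05). Mcm2, a helicase subunit that also binds H3 and H4 and stands in the S-phase list too, fell by 1.29 ± 0.10 (edgeR adjusted p = 1.43e-05). Ep400, the motor of a complex that exchanges H2A.Z, rose by 0.47 ± 0.09 (edgeR adjusted p = 0.0024), and Nap1l4, a chaperone of H2A and H2B, by 0.25 ± 0.07 (edgeR adjusted p = 0.0113). Of the genes that place H3.3, named after their values were seen, Atrx fell by 0.40 ± 0.07 (edgeR adjusted p = 0.0013), while Daxx, its partner, and Hira, Ubn1, Ubn2 and Cabin1 were not past the test.

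The Hist genes were also grouped by where their annotated transcripts end, at a limit chosen after the values were seen. Of all tested genes 27.6% rose and 27.9% fell. Of 17 with at least 100 bases annotated past the stem-loop 8 rose (47.1%), with a median log2 fold change of 0.71. Of 18 with fewer, 6 rose (33.3%, near the share of all genes) and 2 fell (11.1%), with a median of 0.50. Of the 15 with no stem-loop in the annotation 6 rose (40%), with a median of 0.69. The risen genes include Hist1h4a in the first group and Hist1h4k in the last, which entered the set through their TNF-alpha counts alone. Hist1h2bq and Hist1h2br, both risen in the last group, had identical counts. Hist1h3c, which fell, entered through its vehicle counts alone. By position, 16 of 40 genes of the Hist1 cluster on chromosome 13 rose (40%) and 2 fell (5%), the genes just named among them. In the Hist2 cluster on chromosome 3, 3 of 9 rose (33.3%), near the share of all genes. These include Hist2h2aa1 and Hist2h2aa2, whose counts lay within 2% of each other in all 6 libraries. Hist3h2a on chromosome 11 rose.

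At the edge of the set, 7 members had 10 or more counts in exactly 3 libraries and 3 symbols outside it (Hist3h2ba, Hist1h2an and Hist1h4b) reached 10 in 2 libraries. With the 3 genes admitted by 1 group alone and those averaging under 10 counts left out, 18 of 46 Hist genes rose and 1 fell, with the same median of 0.56.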

How the data were processed

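RNA sequencing was made from 6 polyA libraries of engineered muscle, 3 per group, with a stranded mRNA kit, per the labels' protocols. The deposited table holds 1 count per gene symbol and library. About 20.1% to 21.0% of the values carry decimals, so these are the authors' estimated counts (expected counts) and were rounded to whole numbers for the tests. The submitters' processing notes name mm10/GRCm38, TopHat2 2.1.1, Bowtie2 2.3.5.1, featureCounts of Subread 2.0.0 and DESeq2, with no roles. How reads were counted, and on which strand, is not given in the sources used here, and reads of near-identical histone copies or overlapping genes cannot be separated.

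The main test was edgeR 4.0.16 in R 4.3.3 (TMM scaling, filterByExpr, robust quasi-likelihood F-test) on all genes, with 15792 tested and Benjamini-Hochberg adjustment over them. The biological coefficient of variation was 12.1%, and replicates differed beyond sampling noise (chi-square per degree of freedom 23 to 70.6). Alternatives were upper-quartile or median-ratio scaling, no low-count filter, a filter of 50 counts in 3 libraries, DESeq2 1.42.0, limma 3.58.1 with voom, no robust estimation, the replicate number as a block, leaving out each library, only whole-count genes, and classes by stem-loop. Exon lengths, gene positions and stem-loops come from GENCODE M21 and promoters from RefSeq GRCm38.p6, where 54 of 60 members matched. Of the table's symbols 95.7% were found in GENCODE M21.

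Members and lists were chosen with earlier results of these data known, so no p-value was adjusted over a list or computed for a sum. Values in every library are given for each variant gene and, among the Hist genes, for the 6 most abundant and, of those past the test, the 4 with the largest and the 4 with the smallest log2 fold change. From each other list the 2 genes with the smallest p in each direction are named, with Slbp; others are marked where they appear. Counting intervals were not used, since replicate spread sets the error.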

Additional observations from a re-analysis of the deposited data

How the results depend on the processing

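Of 264 comparisons of a main value with an alternative, 242 stayed close to it, 20 moved further and 2 changed sign. Close meant a count within 1.5 times, or a median or sum within 1 SD of the TNF-alpha libraries. These comparisons include counts over all tested genes and over the S-phase, chaperone and processing lists, not histone genes alone. A drop from 20 to 14 risen Hist genes was within the 1.5 limit. The number of Hist genes that rose was 20, and between 12 and 19 when 1 library was left out. The count of 12 came without TNF-alpha replicate 1, where 4142 of 16023 tested genes rose. Among Hist genes the number risen varied with the other settings too. It was 1 of 4 among genes with whole counts. With the replicate number as a block it was 16, with at least 50 counts in 3 libraries 14. The number of Hist genes that fell was 2. It was 1 with no filter on low counts, with DESeq2, with the replicate block and among genes not admitted by 1 group alone, 0 with at least 50 counts in 3 libraries and among whole-count genes, and 0 to 2 without 1 library. The summed log2 ratio of the Hist genes was 1.02, 0.72 without Hist1h1c and Hist1h2bc (chosen after seeing the data), and -0.063 among whole-count genes. The median log2 fold change of the whole-count Hist genes was 0.66. For the variants, whole-count genes gave 2 lower, a median log2 fold change of -0.25 and a summed log2 ratio of 0.27, against 6, -0.39 and 0.09 in the main values. With classes set by the stem-loop instead of the symbol, the class without one held 9 higher genes and had a median of 0.48. The whole-count and stem-loop settings differ by construction in which genes they hold. The replicate numbers did not pair the samples: deviations of same-numbered libraries correlated at 0.04, -0.05 and -0.11. Median-ratio scaling left the median of all genes at 0.00 and upper-quartile scaling moved it to -0.03 on the log2 scale. Genes under 1 CPM rest on few counts, and differences there were often not detectable at this depth.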
